A study of Mus musculus with 11 samples.

Results

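The small RNAs of mouse cells on days 3 and 4 of reprogramming were set against those of days 1 and 2 of the same course. The comparison uses 4 of the 11 deposited libraries, 1 library per day. Days 3 and 4 come from Mbd3f/- secondary mouse embryonic fibroblasts (MEF), carrying a doxycycline-inducible OKSM cassette (Oct4, Klf4, Sox2 and Myc) and kept at 5% oxygen, that were plated on irradiated human foreskin fibroblasts, a feeder layer of another species. Days 1 and 2 are the same Mbd3f/- cells on doxycycline in FBS/LIF medium, without that feeder layer as far as the labels say. The labels put the change to medium with LIF and the 2i inhibitors (of MEK/ERK and GSK3) close to the same time, by one account at day 3.5 and by another with 2i at 48 hours and serum-free medium from day 3. All 4 libraries share the Mbd3 genotype and the transgene, so the comparison has no wild-type arm. Feeders, medium and time on doxycycline change together between the pairs and cannot be told apart.

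MicroRNAs (miRNAs) are short RNAs cut from hairpin precursors, and they lower the output of target mRNAs that match their seed, the stretch of bases 2 to 8. Many are transcribed together from clusters, and several clusters mark a cell state: the miR-290 and miR-302 clusters belong to pluripotent cells, the miR-200 family to epithelia, miR-206 and miR-133 to muscle, and miR-223 to myeloid blood cells. In reprogramming, fibroblasts lose mesenchymal miRNAs and gain those of epithelial and pluripotent cells. Small nucleolar RNAs (snoRNAs), also in the table, guide the chemical modification of ribosomal RNA.

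The values are the authors' FPKM, fragments scaled to gene length and to the mapped fragments of the library, for 3859 rows. Of these, 1419 averaged at least 10 FPKM over the 11 libraries and were compared, among them 901 miRNA rows and 408 snoRNA rows. The low values step in whole reads, which gave an implied 19600000 and 18300000 mapped reads on days 3 and 4, against 12500000 and 13700000 on days 1 and 2. A single read on a gene of 80 nt is thus worth 29.4 and 31.4 FPKM on days 3 and 4, against 46.0 and 42.1 FPKM on days 1 and 2. miRNAs took 93.8% and 96.0% of the recovered reads on days 3 and 4, against 93.9% and 92.6% on days 1 and 2. These are bulk libraries, in which fewer cells of a type and less RNA per cell cannot be told apart. Reads of human feeder RNA that align to a mouse row would be counted there, and their part in the results was not tested.

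The mature sequences of the miRNAs on which the results turn are given from RefSeq (GRCm38.p6) in 5′ to 3′ direction, with the seed in capitals. A row of the table is a whole gene, so the 2 arms of a hairpin are not told apart. Of the 901 miRNA rows, 641 matched a RefSeq entry with a mature sequence. The first set comprises miRNAs with a large difference between days 2 and 3, with the close relatives of miR-100 beside it.
miR-654-5p: uGGUAAGCugcagaacaugugu
miR-654-3p: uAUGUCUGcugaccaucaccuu
miR-539-5p: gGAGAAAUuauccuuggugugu
miR-490-3p: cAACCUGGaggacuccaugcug
miR-493-3p: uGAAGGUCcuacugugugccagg
miR-100-5p: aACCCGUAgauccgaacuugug
miR-99b-5p: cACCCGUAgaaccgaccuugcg
miR-10b-5p: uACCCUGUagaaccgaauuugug
The second set shows the shared seed of the pluripotency clusters and that of the miR-200b group.
miR-291a-3p: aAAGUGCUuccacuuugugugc
miR-294-3p: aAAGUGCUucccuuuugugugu
miR-295-3p: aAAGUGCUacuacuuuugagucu
miR-302b-3p: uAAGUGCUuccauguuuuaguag
miR-302d-3p: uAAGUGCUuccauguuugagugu
miR-200b-3p: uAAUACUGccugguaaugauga
miR-429-3p: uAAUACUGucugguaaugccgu
The third set holds miRNAs with a lower row on days 3 and 4, and a let-7 pair with 1 seed whose rows differed in opposite directions. For miR-125b this row is Mir125b-1, while Mir125b-2, which gives the same mature sequence, overlapped.
miR-206-3p: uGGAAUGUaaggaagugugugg
miR-223-3p: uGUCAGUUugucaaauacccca
miR-511-3p: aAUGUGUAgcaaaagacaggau
miR-351-5p: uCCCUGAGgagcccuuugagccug
miR-125b-5p: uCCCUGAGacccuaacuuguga
miR-181a-5p: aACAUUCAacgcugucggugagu
miR-181d-5p: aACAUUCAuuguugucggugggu
let-7b-5p: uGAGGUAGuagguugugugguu
let-7i-5p: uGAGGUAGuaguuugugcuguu

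A row counted as higher when its day 3 and day 4 values both lay above those of days 1 and 2, and as lower when both lay below. By that rule 321 of 1419 rows (22.6%) were higher on days 3 and 4, 285 (20.1%) were lower and 813 overlapped. The median difference over all rows was 0.03 in log2(FPKM + 10). Among miRNA rows 263 of 901 were higher (29.2%) and 162 lower (18%), whereas among snoRNA rows 48 of 408 were higher (11.8%) and 96 lower (23.5%). Nearest values at least 2-fold apart left 104 rows higher (7.33%) and 72 lower (5.07%). Scaling the libraries by the median ratio of 408 abundant miRNAs shifted the median by -0.21 and gave 262 rows higher and 402 lower. Rows on the higher side were then 39.5% of the calls, against 53.0% with the deposited scaling. That scaling divided days 3 and 4 by 1.21 and 1.56, and days 1 and 2 by 1.00 and 1.16. It could thus neither undo a lower call nor add a higher one, and all 285 lower rows kept their side. Of the 321 higher rows 262 kept theirs. Leaving out 1 library at a time gave 414 to 571 rows higher and 412 to 533 lower, since a single value is more easily separated from the other pair. For size, the same rule between days 5-6 and days 3-4 gave 265 rows higher (18.7%) and 333 lower (23.5%).

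**Figure D1:**
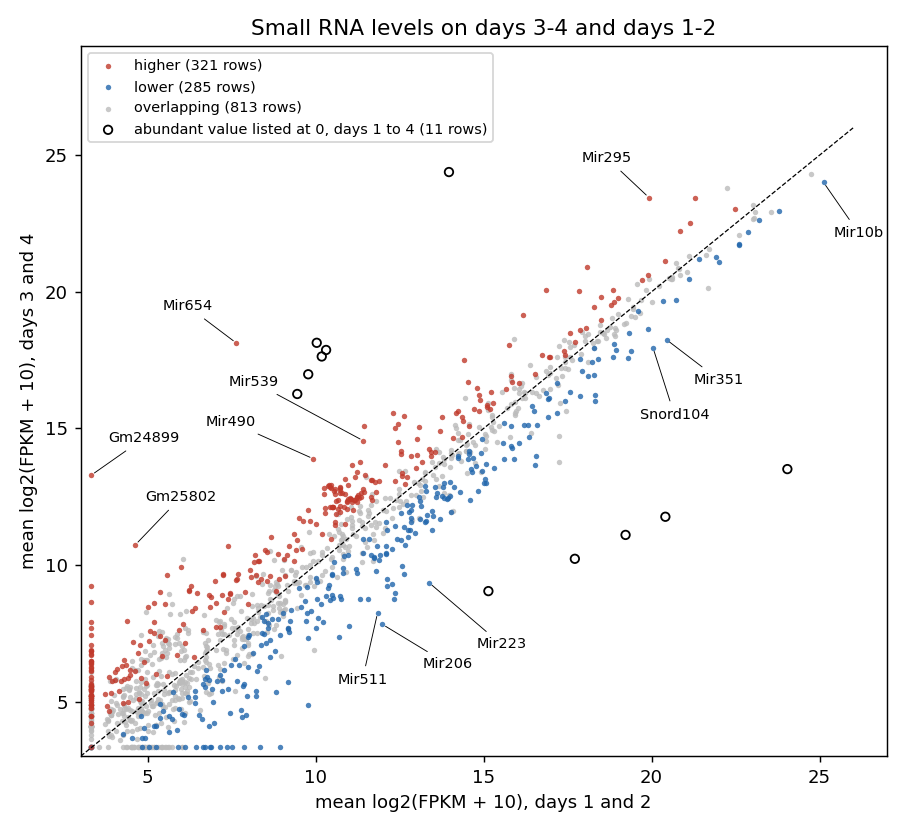
Mean log2(FPKM + 10) of each of the 1419 rows on days 3 and 4 (vertical axis) and on days 1 and 2 (horizontal axis), coloured by whether the pairs of days overlap. Mir654 and Gm24899 lie farthest above the dashed line of equal levels among the labelled rows, Mir206 and Mir223 lie below it, and the open circles are 11 rows with an abundant value listed at 0.

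With 1 library per day, the scatter between days is the only error available. Fitted with limma over days 1 to 8 in 4 windows of 2 days, 5 rows passed an adjusted p of 0.05 as higher on days 3 and 4 (0.352%) and 4 as lower (0.282%). At an unadjusted p under 0.05 there were 236 rows, 140 higher and 96 lower. A fit of a step at day 3 beside a straight line in day called 3 rows higher (0.211%) and none lower (0%), with 119 and 94 rows at an unadjusted p under 0.05. The 3 rows were Mir654, Mir539 and the snoRNA Gm24899, and all are also among the 5 of the window fit. The other calls were low: Gm24155 had 33.0 and 75.0 recovered reads and mmu-mir-7020 had 2.02 and 3.02 on days 3 and 4, with both listed at 0 on days 1 and 2. Mir1264, Mir3075, Mir3105 and mmu-mir-6985 were listed at 0 on days 3 and 4, with 1.01 to 6.02 recovered reads on days 1 and 2. With only days 1 to 4 in the fit no row passed in either direction. Without day 1, 2, 3 or 4 the window fit called 12, 13, 15 and 12 rows higher and 10, 14, 16 and 3 lower. The step fit called 15 rows higher without day 1, 11 without day 2 and 1 without day 3, 5, 6, 7 or 8, and 11 rows lower without day 1 and 15 without day 2.

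The largest difference among abundant miRNAs was that of Mir654, a hairpin of the imprinted Dlk1-Dio3 region (mm10, chr12:109723218-109723301, plus strand). It had 297835 and 275908 FPKM on days 3 and 4, against 241 and 147 FPKM on days 1 and 2. The earlier values stood for 6.02 and 4.02 recovered reads, and the later ones for 11657 and 10112. On the log2(FPKM + 10) scale the difference was 10.50 ± 0.33 (SE; limma, adjusted p = 8.11e-05), and the step at day 3 was 11.03 ± 0.44 (limma, adjusted p = 3.29e-05). The level then held between 107241 and 206776 FPKM on days 5 to 8. It was 130 FPKM in MEF, 67.5 FPKM in the iPSC library and 164921 FPKM in the embryonic stem cell (ESC) library. The column of that library carries the name of the ESC line V6.5 while its label gives Mbd3f/-, so its genotype is not settled here or in the ESC values below. Mir654 was thus near the level of single reads in MEF, on days 1 and 2 and in iPSC, and abundant in the other 7 libraries.

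Mir539, a further hairpin of the same region (chr12:109728129-109728202), followed a smaller course of that shape. It had 24196 and 23752 FPKM on days 3 and 4, against 3116 and 2375 FPKM on days 1 and 2, a difference of 3.13 ± 0.29 (limma, adjusted p = 0.0229). Its iPSC value was 3153 FPKM and its ESC value 23119 FPKM. The step fit gave 3.74 (limma, adjusted p = 0.0326), a call that was lost without day 3, 4, 5, 6, 7 or 8, with a pseudocount of 100 and under the miRNA scaling. Gm24899, a snoRNA in an intron of the long noncoding RNA Rian (chr12:109641022-109641094), had 29241 and 3437 FPKM on days 3 and 4 and was listed at 0 on days 1 and 2 and in MEF. Its fitted difference of 9.97 (limma, adjusted p = 0.0229) depends on the pseudocount, being 13.29 with 1 and 6.67 with 100 in place of 10, and the call was lost with 100 and without day 1 or day 2. The step of Gm24899 was 10.36 (limma, adjusted p = 0.0202), which was lost with 100, under the miRNA scaling and without day 3, 5, 6, 7 or 8. Gm24899 had 50.4 FPKM in iPSC and 14177 FPKM in ESC.

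Other rows had this shape without passing the test, and were grouped after their values were seen. Mir490, from an intron of the muscarinic receptor gene Chrm2 (chr6:36421742-36421825), had 17314 and 13258 FPKM on days 3 and 4, against 2288 and 404 FPKM on days 1 and 2 (11.4-fold by mean FPKM; limma, adjusted p = 0.153). Mir493, at the start of the Dlk1-Dio3 miRNAs (chr12:109580233-109580315), had 94474 and 117938 FPKM on days 3 and 4, against 21070 and 26791 FPKM on days 1 and 2 (4.44-fold; limma, adjusted p = 0.0610). Mir100, a miRNA common in fibroblasts and other differentiated cells, had 1224150 and 923402 FPKM on days 3 and 4, against 327587 and 170633 FPKM on days 1 and 2 (4.31-fold; limma, adjusted p = 0.108). For all of these the pairs of days did not overlap and the day-2 value was below that of MEF. In ESC and iPSC, Mir490 had 7631 and 337 FPKM, Mir493 had 60731 and 10339 FPKM, and Mir100 had 602545 and 6216 FPKM. Both of these lines were plated on human feeders, per the labels. The snoRNA Gm25802 on chromosome 3 had 3296 and 880 FPKM on days 3 and 4, against 51.6 FPKM on day 1 and a listed 0 on day 2.

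**Figure D2:**
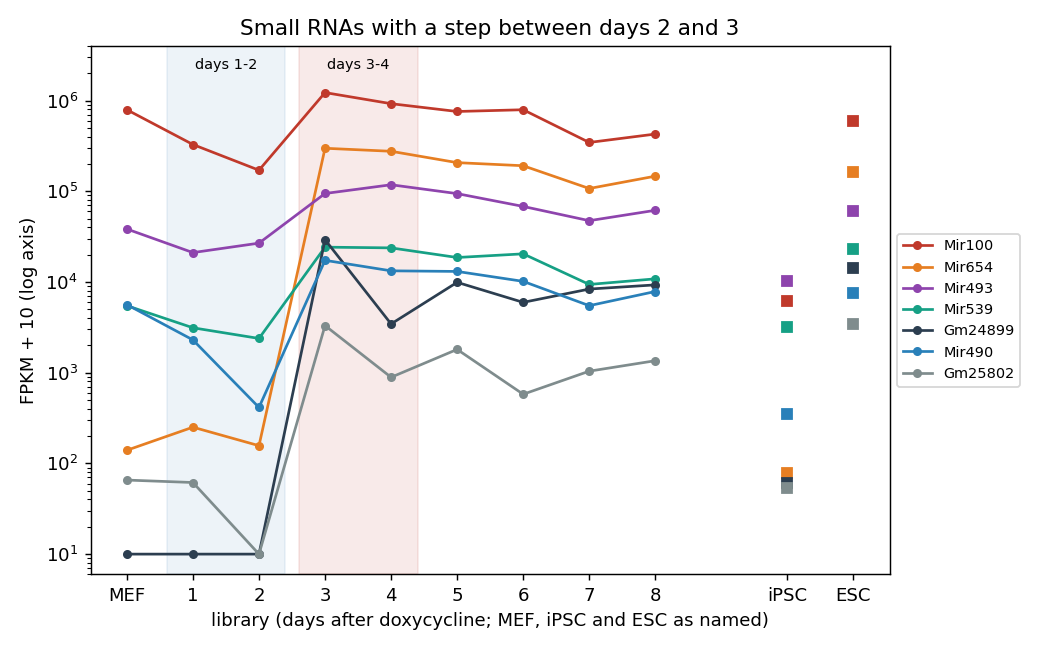
FPKM + 10 (log axis) of 7 rows in the MEF, day 1 to day 8, iPSC and ESC libraries, 1 point per library, with days 1-2 shaded blue and days 3-4 shaded red. The rows were chosen for a step after day 2, after their values were seen. Mir654 lies at 241 and 147 FPKM before that step and at 297835 and 275908 FPKM after it. Each of these 7 rows is higher in ESC than in iPSC, while Gm26117, which is left out, is lower in ESC. Mir3968 is left out too. It had 1114 and 2401 FPKM on days 3 and 4, against 71.6 and 335 FPKM on days 1 and 2, and fell back to between 247.5 and 499 FPKM on days 5 to 8.

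The miR-290 cluster, the most abundant miRNA cluster of mouse pluripotent cells (Mir290 to Mir295, chr7:3218626-3220841), was higher on days 3 and 4 in 7 of 7 rows, with a median difference of 3.08 that was 1.00 without day 1 and 5.16 without day 2. None of the 7 passed the window fit. Over all miRNA rows 29.2% were higher and 18% lower. Mir295 had 8752670 and 15028700 FPKM on days 3 and 4, against 265541 and 3706300 FPKM on days 1 and 2. Mir292 had 1282100 and 3051370 FPKM on days 3 and 4, against 62932 and 1201450 FPKM on days 1 and 2, so that days 2 and 3 were close. Mir290 had 45152 and 52928 FPKM on days 3 and 4, against 1122 and 22915 FPKM on days 1 and 2. The greater part of the gain lay before the feeders: the median change of the 7 rows was 4.16 between days 1 and 2, 0.84 between days 2 and 3, and 0.78 between days 3 and 4. The miR-302 cluster, which carries the same seed in miR-302b and miR-302d as miR-291a, miR-294 and miR-295, stayed far lower. Mir302d had 4106 and 3844 FPKM on days 3 and 4, against 1428 and 4424 FPKM on days 1 and 2, and the pairs overlapped. Mir302a, with 1884 and 2299 FPKM on days 3 and 4 against 140 and 1091 FPKM on days 1 and 2, was higher. Of 5 miR-302 rows 2 were higher (1 under the miRNA scaling) and none lower, and their median difference of 1.09 became -0.11 without day 1, 1.87 without day 2 and 0.61 without day 3. Over the rows with this seed (AAGUGCU) 4 of 5 were higher.

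The miR-183-96-182 cluster and the miR-200b-200a-429 cluster, which is known for holding down the mesenchymal factors Zeb1 and Zeb2, had differences spread over days 1 to 4. Mir96 had 23964 and 55001 FPKM on days 3 and 4, against 3176 and 9773 FPKM on days 1 and 2 (6.10-fold). Mir183 had 7241120 and 17506100 FPKM on days 3 and 4, against 1217210 and 5343820 FPKM on days 1 and 2 (3.77-fold). Mir182 overlapped, with 8444330 and 25722800 FPKM on days 3 and 4, against 2807750 and 8745310 FPKM on days 1 and 2. Within the miR-200 family the 2 genomic clusters differed in opposite directions. Mir200b had 19940 and 53660 FPKM on days 3 and 4, against 2360 and 11508 FPKM on days 1 and 2 (5.31-fold). Mir429 had 7675 and 21739 FPKM on days 3 and 4, against 1081 and 4256 FPKM on days 1 and 2 (5.51-fold). Mir141, from the other cluster on chromosome 6, had 5338 and 6636 FPKM on days 3 and 4, against 18575 and 10544 FPKM on days 1 and 2, and its partner Mir200c was also lower. Of the 5 family rows 3 were thus higher and 2 lower, where 29.2% of all miRNA rows were higher and 18% lower. The 3 higher rows kept their side under the miRNA scaling, which cannot undo a lower call. The limma adjusted p was at least 0.235 for each of the 5. Mir141 stood at 1021060 FPKM in iPSC and 2176040 FPKM in ESC, so its lowest value of the course, on day 3, preceded a later gain.

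Oncogenic growth miRNAs of the miR-17-92 cluster and its paralogs could be judged only in part, because 6 of the 15 rows were listed at 0 on day 2. Among the other 9 rows 2 were higher and none lower, beside 29.2% higher and 18% lower over all miRNA rows. Their median difference of 0.39 was -0.31 without day 1 and 0.65 without day 2. Mir363, from the X-linked paralog, had 19283 and 32956 FPKM on days 3 and 4, against 4723 and 14582 FPKM on days 1 and 2. Mir25, the most abundant of the 9, had 1380980 and 2552390 FPKM on days 3 and 4, against 1199150 and 2900340 FPKM on days 1 and 2.

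**Figure D3:**
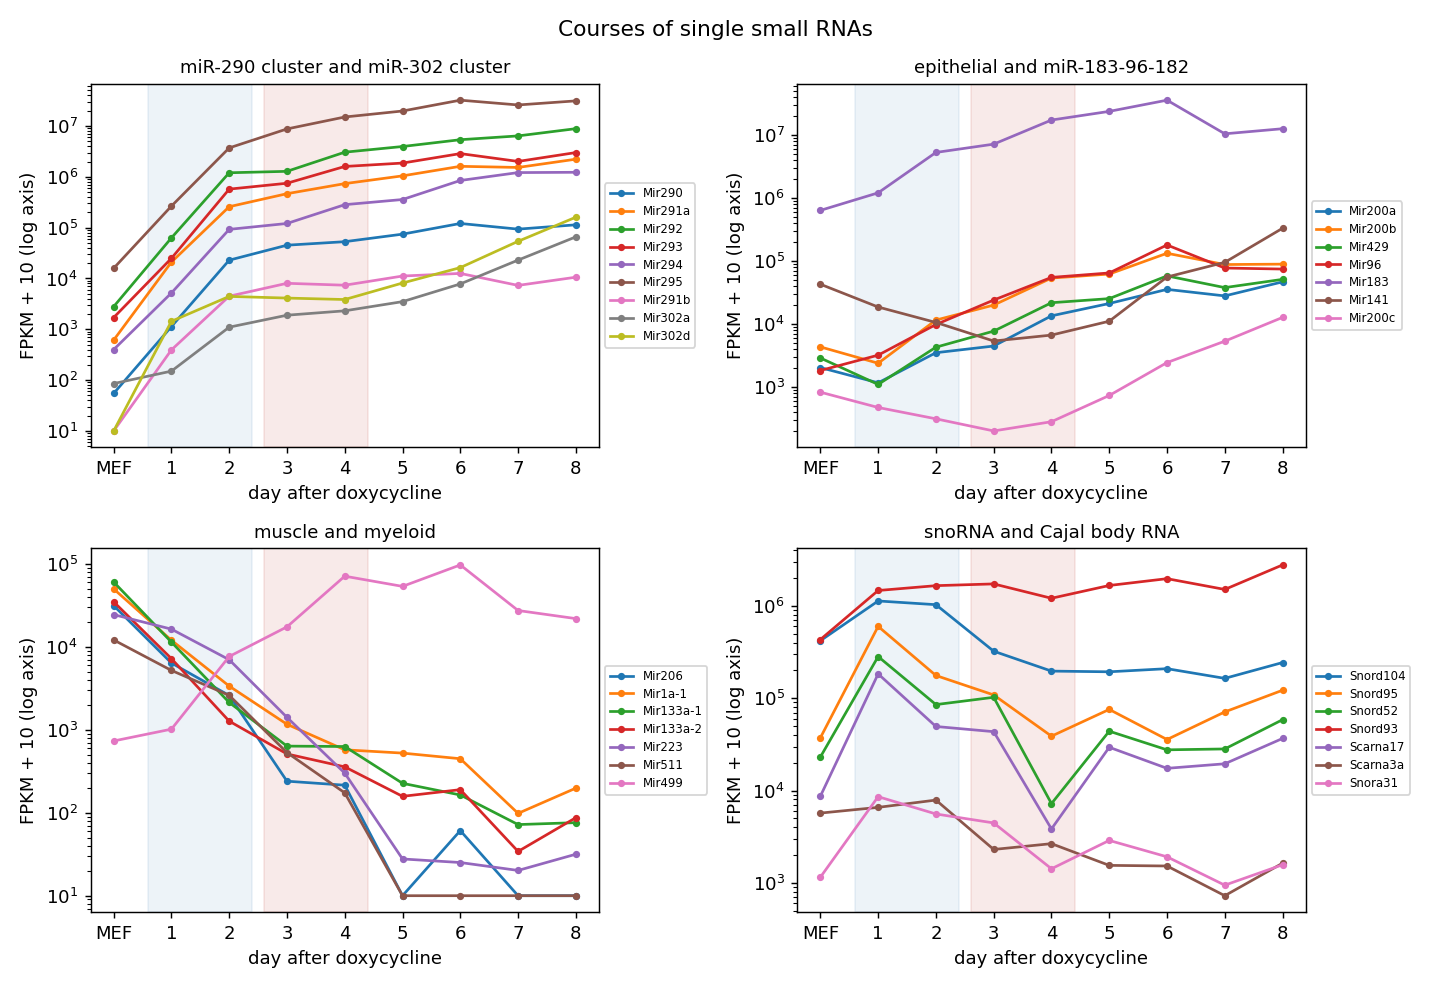
FPKM + 10 (log axis) of single small RNAs in MEF and on days 1 to 8, 1 library per point, with days 1-2 shaded blue and days 3-4 shaded red. The miR-290 rows climb most between days 1 and 2, Mir141 and Mir200c reach their lowest values on day 3, muscle and myeloid miRNAs decline from MEF onward apart from Mir499, and several snoRNAs dip on day 4.

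A large group of higher rows was a family of miRNAs (miR-297, miR-466, miR-467 and miR-669), most of them in an intron of the Polycomb gene Sfmbt2 on chromosome 2. The table held 79 such rows, and 72 were tested, of which 66 were higher on days 3 and 4 and none lower, with a median difference of 1.71. Over all miRNA rows, which include these, 29.2% were higher and 18% lower. Under the miRNA scaling 60 of the 72 were higher and 1 lower. None of them passed the window fit. Mir467c had 30299 and 64624 FPKM on days 3 and 4, against 7203 and 26226 FPKM on days 1 and 2. Mir467e had 29353 and 67860 FPKM on days 3 and 4, against 3767 and 10499 FPKM on days 1 and 2. Mir466f-2 had 460 and 747 FPKM on days 3 and 4, against 86.4 and 52.6 FPKM on days 1 and 2. The median row was higher on each successive day, with a change of 1.24 between days 1 and 2, 0.63 between days 2 and 3, and 0.99 between days 3 and 4. By position 57 of the 72 lie on chromosome 2, 3 on other chromosomes and 12 were not placed. The 72 rows were listed by family name. The whole stretch of chromosome 2 from Gm22072 to Mir669h held 85 tested rows, with 68 higher and none lower. Its rows under other names were mixed, with Gm24114 and Gm24315 higher, and Gm26491 and Gm25701 overlapping. The rows of the family are near copies of each other and share reads, so the 72 are not 72 measurements. On chromosome 2 as a whole 79 of 158 rows were higher, and the 158 include the 57 of this family.

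A further group, the X-linked miRNAs of the miR-743 to miR-470 and miR-465 clusters known from spermatogenic cells, was mostly at low levels. Of 18 rows 4 were higher, none lower and 14 overlapped, beside 22.6% higher over all rows. The median difference of 0.72 was 0 without day 1, 1.37 without day 2, 1.27 without day 3, 0.33 without day 4 and 0.37 under the miRNA scaling. Mir470 had 2024 and 3906 FPKM on days 3 and 4, against 1389 and 1677 FPKM on days 1 and 2, and reached 170927 FPKM on day 8. Mir880 had 31.8 and 33.9 FPKM on days 3 and 4, about 1 read, and was listed at 0 on days 1 and 2.

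In the imprinted Dlk1-Dio3 region of chromosome 12, whose noncoding RNAs are made from the maternal chromosome, the miRNA and snoRNA rows are given beside the shares over all rows of each kind. Between Mir770 and Mir3072 (chr12:109563692-109747960) 49 miRNA rows had no abundant value listed at 0. Of these 21 were higher on days 3 and 4, 2 lower and 26 overlapping, where 29.2% of all miRNA rows were higher and 18% lower. Their median difference of 0.56 was 0.86 without day 3 and 0.23 without day 4. The 20 snoRNA rows, all from the Rian part in the middle, held 2 higher, 10 lower and 8 overlapping rows, where 11.8% of all snoRNA rows were higher and 23.5% lower. Their median of -0.77 was -0.34 without day 1 and -1.21 without day 2. Scaled by abundant miRNAs, the miRNA rows had 17 higher and 11 lower with a median of 0.21, and the snoRNA rows 2 higher and 12 lower with a median of -1.12. In the miR-379 to miR-410 block alone, 13 of 29 rows were higher and 2 lower with a median of 0.34, which became 11, 8 and -0.02 under that scaling. That median was 0.54 without day 1, 0.62 without day 3 and 0.16 without day 4. The abundant members of the block overlapped: Mir541 had 5469390 and 8659760 FPKM on days 3 and 4, against 9361680 and 7898880 FPKM on days 1 and 2. Mir410 had 1083360 and 1921790 FPKM on days 3 and 4, against 1433070 and 1805260 FPKM on days 1 and 2. Mir654 and Mir539 had the largest differences of the block. Of the 10 rows in and beside the part antisense to Rtl1, 9 were tested, and 5 of these were listed at 0 on day 4, which includes the 3 lower calls among the 9. Of the other 4 rows 2 were higher and none lower. Mir337 among them had 78894 and 101576 FPKM on days 3 and 4, against 54979 and 48573 FPKM on days 1 and 2. Mir665 had 14425 and 20690 FPKM on days 3 and 4, against 4808 and 7476 FPKM on days 1 and 2.

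**Figure D4:**
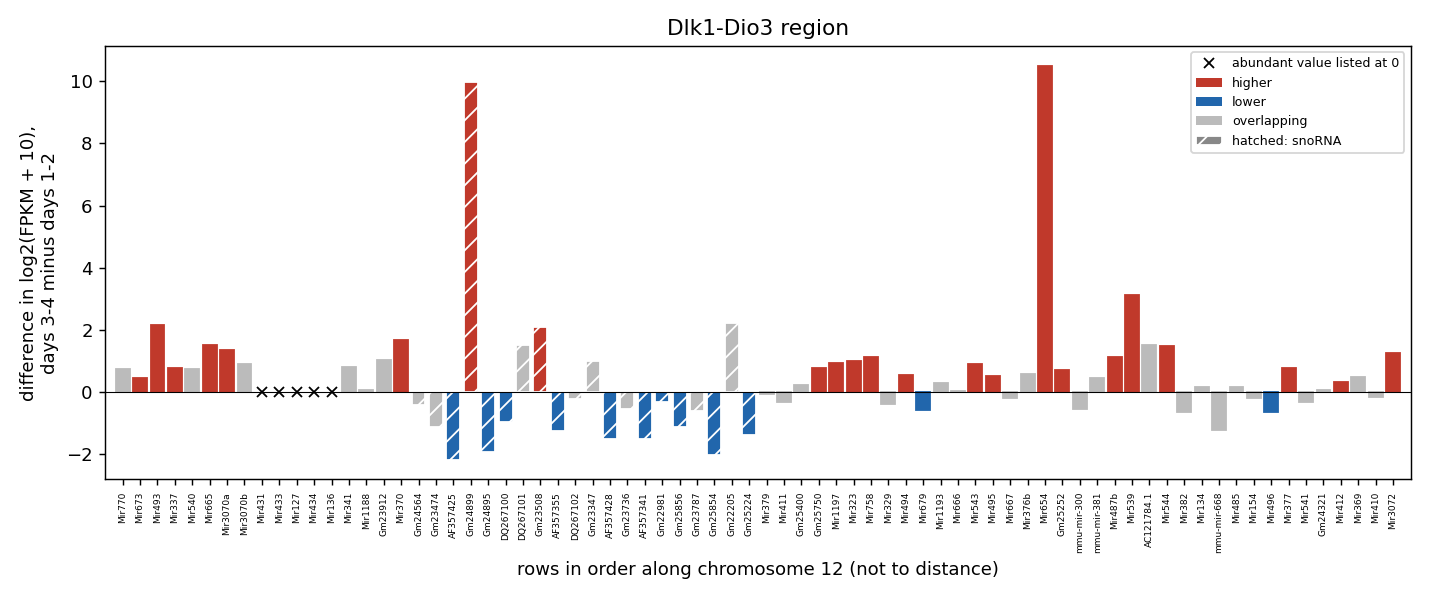
Difference in log2(FPKM + 10), days 3-4 minus days 1-2, for the tested rows of the Dlk1-Dio3 region in order along chromosome 12, hatched where the row is a snoRNA. Mir654 (10.50) and Gm24899 (9.97) exceed every other bar, 10 of the 20 snoRNA bars are lower calls, and crosses mark 5 rows with an abundant value listed at 0.

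The rows with the largest differences on the lower side included miRNAs known from muscle and from myeloid cells. Of 9 muscle rows 6 were lower, 1 higher and 2 overlapping, beside 18% lower and 29.2% higher over all miRNA rows. Their median difference of -1.71 was -0.68 without day 1, -3.80 without day 2 and -2.82 over rows of at least 100 FPKM. Mir206 had 230 and 205 FPKM on days 3 and 4, against 6356 and 2577 FPKM on days 1 and 2, a 20.6-fold lower mean (limma, adjusted p = 0.186). Mir1a-1 had 1153 and 563 FPKM on days 3 and 4, against 11964 and 3348 FPKM on days 1 and 2. The decline had begun before: MEF held 31309 FPKM of Mir206 and 49796 FPKM of Mir1a-1, and the median change of the list was -1.83 between days 1 and 2 and -0.63 between days 2 and 3. Mir499, encoded in an intron of the myosin gene Myh7b, was the exception, with 17366 and 70878 FPKM on days 3 and 4, against 1006 and 7625 FPKM on days 1 and 2 (10.2-fold). The summed FPKM of the 9 rows was 20938 and 73384 on days 3 and 4, against 43356 and 18342 on days 1 and 2, a sum in which Mir499 holds the larger share of the later values.

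Among 10 blood cell rows 5 were lower, 2 higher and 3 overlapping, with a median of -1.04. Of all miRNA rows 18% were lower and 29.2% higher. Mir223, the myeloid miRNA on the X chromosome, had 1400 and 290 FPKM on days 3 and 4, against 16297 and 6971 FPKM on days 1 and 2 (13.8-fold lower by mean). Mir511, in an intron of the macrophage mannose receptor gene Mrc1, had 521 and 164 FPKM on days 3 and 4, against 5176 and 2585 FPKM on days 1 and 2 (11.3-fold lower). Both were listed at 0 in iPSC and ESC. Mir146b, which is not limited to blood cells, was on the higher side, with 804266 and 627362 FPKM on days 3 and 4, against 456151 and 227437 FPKM on days 1 and 2. Mir150, the other higher row, had a difference of 1.13. Both calls were lost under the miRNA scaling, where the list held 6 lower rows and none higher. The summed FPKM of the 10 rows was 3703417 and 4697346 on days 3 and 4, against 5438538 and 3429860 on days 1 and 2, so the sums overlapped. Lower rows from other tissues included Mir122a, the liver miRNA, with 558 and 325 FPKM on days 3 and 4, against 7852 and 3336 FPKM on days 1 and 2. Mir1298, in an intron of Htr2c, had 195 and 121 FPKM on days 3 and 4, against 3479 and 766 FPKM on days 1 and 2. Mir873, in an intron of Lingo2, had 890 and 387 FPKM on days 3 and 4, against 5930 and 3301 FPKM on days 1 and 2.

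In the fibroblast and mesenchymal list 1 of 12 rows was higher, 1 lower and 10 overlapped, beside 22.6% higher and 20.1% lower over all rows. The median of -0.28 became 0.40 without day 1, -0.98 without day 2 and -0.64 under the miRNA scaling, where none was higher and 2 were lower. Mir21, the lower one, had 9188300 and 7379770 FPKM on days 3 and 4, against 18102000 and 11504600 FPKM on days 1 and 2. Mir143, the most abundant of the list, had 19084900 and 22448200 FPKM on days 3 and 4, against 40549900 and 19230200 FPKM on days 1 and 2. Its neighbour Mir145 had 201314 and 131231 FPKM on days 3 and 4, against 187971 and 37886 FPKM on days 1 and 2. The median change of the list was -1.22 between days 1 and 2, 0.46 between days 2 and 3 and -0.05 between days 3 and 4, beside 0.18, -0.06 and 0.22 over 1408 rows with no abundant value listed at 0. In these steps 2, 8 and 3 of the 12 rows had the higher value on the later day. Its summed FPKM was 40412128 and 44882147 on days 3 and 4, against 72117010 and 45388718 on days 1 and 2, so the sum, which the few most abundant rows set, was lower on day 3 than on day 2. Fibroblasts in general are known to make these miRNAs, and the part of the feeder layer in the change between days 2 and 3 was not tested.

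Families of differentiated cells held both higher and lower rows, at counts that stand beside 22.6% higher and 20.1% lower over all rows. In the let-7 family, which limits growth and rises in differentiation, 3 of 10 rows were higher and 4 lower, or 3 and 7 under the miRNA scaling. Mirlet7i had 2910050 and 4194590 FPKM on days 3 and 4, against 6819220 and 5910450 FPKM on days 1 and 2. Mirlet7b, with the same seed, had 339796 and 395904 FPKM on days 3 and 4, against 235560 and 162000 FPKM on days 1 and 2. These 2 rows did not overlap, in opposite directions, and Mirlet7b stayed higher under the miRNA scaling. Among the miR-10 and miR-100 relatives, whose mature sequences are alike, Mir100 was higher as given above. Mir10b, from the HoxD cluster and the most abundant row of days 1 to 4, had 17266700 and 16391200 FPKM on days 3 and 4, against 35624300 and 37385300 FPKM on days 1 and 2 (limma, adjusted p = 0.209). Mir99b overlapped, with 7617870 and 5916680 FPKM on days 3 and 4, against 9572110 and 7577510 FPKM on days 1 and 2. Over the 6 rows of the miR-99, miR-100 and miR-125 group 1 was higher and 1 lower, and over the 6 rows of the Hox clusters 1 was higher and 2 lower. Mir196b, from the HoxA cluster, was the higher Hox row, with 90777 and 121491 FPKM on days 3 and 4, against 65821 and 51536 FPKM on days 1 and 2.

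In the X-linked cluster of miR-322, miR-351 and miR-542, known for slowing the cell cycle in muscle precursors, 4 of 5 listed rows were lower and none higher. Their median of -1.13 was -0.69 without day 1. By position the cluster from Mir450b to Mir322 held 7 tested rows, with 4 lower, none higher and a median of -0.89. Mir450-1 and Mir450-2, which are outside the list, overlapped. Mir351 had 562329 and 170088 FPKM on days 3 and 4, against 2202510 and 935868 FPKM on days 1 and 2 (4.28-fold lower). Mir542 had 22798 and 22204 FPKM on days 3 and 4, against 105352 and 43895 FPKM on days 1 and 2. Mir125b-1, which shares the seed of miR-351, had 1319410 and 545793 FPKM on days 3 and 4, against 1800550 and 1671100 FPKM on days 1 and 2. The miR-34 family, here the miR-34 genes, targets of p53, with the miR-449 genes Mir449a and Mir449c, was lower in 3 of 5 rows and higher in 1. The counts of this paragraph stand beside 18% lower and 29.2% higher over all miRNA rows. Mir34c had 246542 and 230311 FPKM on days 3 and 4, against 653555 and 390001 FPKM on days 1 and 2. Mir34a, at a separate locus, had 81053 and 132868 FPKM on days 3 and 4, against 64413 and 70351 FPKM on days 1 and 2. In the miR-29 family, which targets collagen mRNAs, 1 of 4 rows was higher and 2 lower. Mir29b-1 had 9035 and 6027 FPKM on days 3 and 4, against 21720 and 14600 FPKM on days 1 and 2.

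Grouped by seed, the miR-181 family (ACAUUCA) had 6 of 6 rows lower, with a median of -0.91 that was -1.46 without day 2. Among the 641 matched rows 22.8% were higher and 21.2% lower. Mir181a-2 had 3723610 and 3181930 FPKM on days 3 and 4, against 9327480 and 4420700 FPKM on days 1 and 2. Mir181d had 205390 and 184926 FPKM on days 3 and 4, against 598627 and 684977 FPKM on days 1 and 2. Mir181a-1 had 2451150 and 2080010 FPKM on days 3 and 4, against 6265720 and 2886070 FPKM on days 1 and 2, but as Mir181a-1 and Mir181a-2 give the same mature miR-181a, they share reads. Mir181b-1 and Mir181b-2 likewise give the same mature miR-181b, so the 6 rows are not 6 measurements. None of the 6 rows passed (limma, adjusted p of at least 0.211). Mir181c had 225061 and 175026 FPKM on days 3 and 4, against 573805 and 390975 FPKM on days 1 and 2. The miR-344 seed (GUCAGGC) had 4 of 7 rows lower and none higher, at low levels. Mir344b had 2992 and 2397 FPKM on days 3 and 4, against 6303 and 6257 FPKM on days 1 and 2, while Mir344-2 overlapped at 3929 and 6814 FPKM on days 3 and 4, against 2542 and 4945 FPKM on days 1 and 2.

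In the neural list 8 of 14 rows were higher and 4 lower, where 29.2% of all miRNA rows were higher and 18% lower. Under the miRNA scaling 5 were higher and 4 lower, with a median of 0.21. Without that scaling the list median was 0.57. The median was 0.17 without day 1 and 0.94 without day 2. Mir124a-2, of the neuronal miR-124 family, had 3876 and 5152 FPKM on days 3 and 4, against 806 and 2631 FPKM on days 1 and 2. Mir9-2, the most abundant, overlapped at 91807 and 258212 FPKM on days 3 and 4, against 100876 and 167096 FPKM on days 1 and 2. In the keratinocyte list 1 of 4 rows was higher and 1 lower. Mir203, an epidermal miRNA, had 1915 and 2703 FPKM on days 3 and 4, against 15467 and 4013 FPKM on days 1 and 2. Mir205 overlapped, at 208902 and 483014 FPKM on days 3 and 4, against 12933 and 288255 FPKM on days 1 and 2. The endothelial Mir126 overlapped too, at 25064 and 54470 FPKM on days 3 and 4, against 21468 and 27083 FPKM on days 1 and 2.

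**Figure D5:**
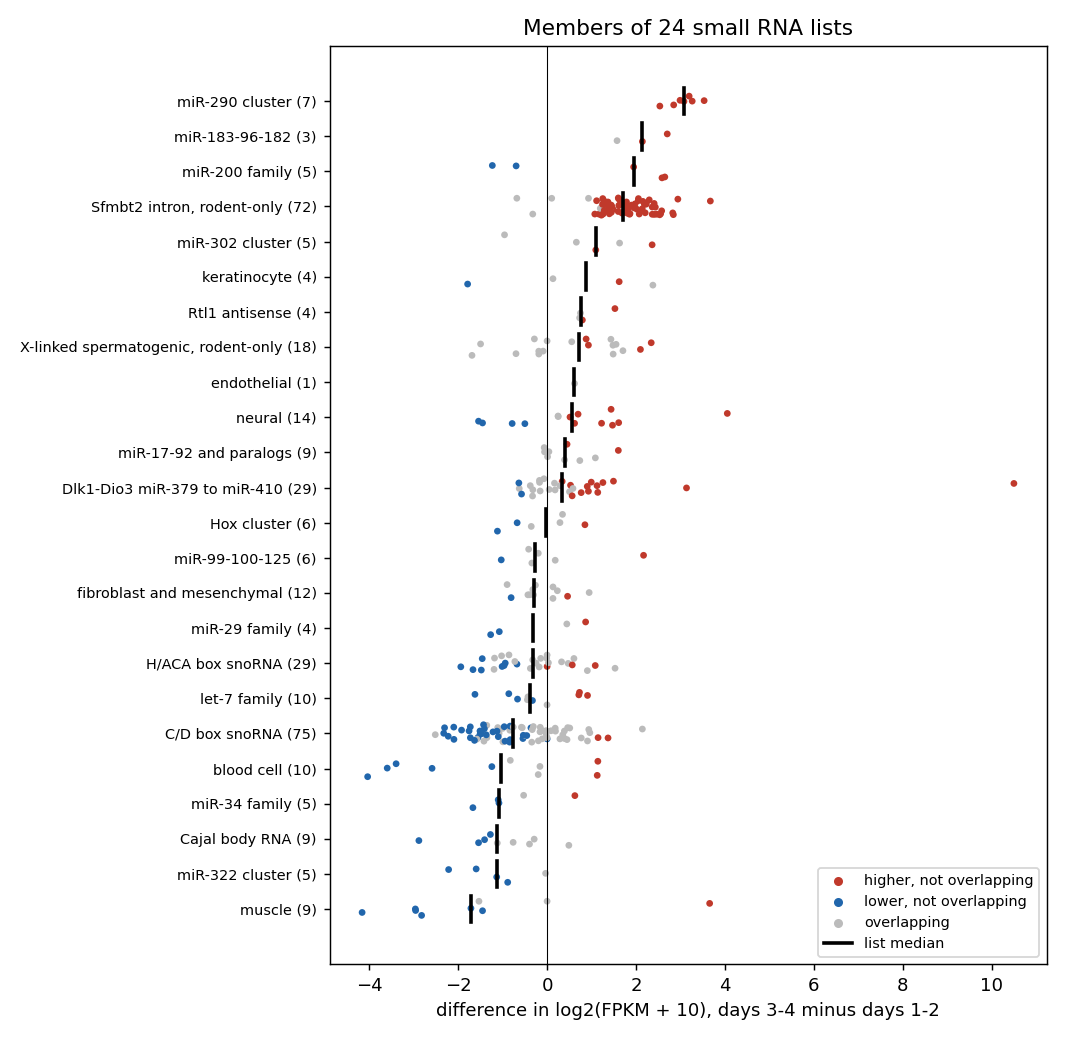
Difference in log2(FPKM + 10), days 3-4 minus days 1-2, for the members of 24 lists (1 point per row, number of rows in brackets, rows with an abundant value listed at 0 on days 1 to 4 left out), with the list median as a black bar. The miR-290 cluster has the highest median (3.08) and the muscle list the lowest (-1.71), with Mir499 alone on the right side of the muscle list.

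SnoRNAs were more often lower than higher, with 23.5% of all snoRNA rows lower and 11.8% higher. Among 75 C/D box snoRNAs, which guide 2′-O-methylation, 30 were lower and 2 higher, with a median of -0.76, or 37 and none under the miRNA scaling. Snord104 had 323365 and 196826 FPKM on days 3 and 4, against 1132180 and 1032130 FPKM on days 1 and 2 (4.16-fold lower; limma, adjusted p = 0.100). Snord95 had 108605 and 38826 FPKM on days 3 and 4, against 600417 and 176363 FPKM on days 1 and 2. Snord93, the most abundant, overlapped at 1732850 and 1210990 FPKM on days 3 and 4, against 1470090 and 1658620 FPKM on days 1 and 2. Among 29 H/ACA box snoRNAs, which guide pseudouridylation, 8 were lower and 3 higher, near the shares over all snoRNA rows. Their median of -0.32 was no longer below 0 without day 2. It was -0.61 without day 1, -0.51 without day 4 and -0.57 under the miRNA scaling. Snora31 had 4446 and 1411 FPKM on days 3 and 4, against 8574 and 5566 FPKM on days 1 and 2. Of 9 listed Cajal body RNAs, which act on spliceosomal RNAs, 4 were lower and none higher, beside 20.1% lower and 22.6% higher over all rows. Over the 15 rows annotated as Cajal body RNAs 6 were lower, 1 was higher and 8 overlapped, with a median of -0.91. Scarna17 had 43430 and 3827 FPKM on days 3 and 4, against 183595 and 49431 FPKM on days 1 and 2. Day 4 stood apart here. Snord52 had 102367 and 7208 FPKM on days 3 and 4, against 282893 and 85367 FPKM on days 1 and 2, and snoRNA rows took 3.75% of the recovered reads on day 4 against 5.74 to 6.98% on days 1 to 3. Without day 4 the C/D box median was -0.46 and the median of the 9 listed Cajal body RNAs -0.71 in place of -1.12.

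Rows with an abundant value listed at 0 were set aside from folds. Mir92-1, Mir17, Mir20a, Mir19b-1, Mir18 and Mir19a, which lie within 1 kb of each other, were all listed at 0 on day 2 only among days 1 to 4. Mir92-1 had 22286300 and 21501400 FPKM on days 3 and 4, against 25639000 FPKM on day 1. Mir431, Mir433, Mir127, Mir434 and Mir136, neighbours in the Dlk1-Dio3 region, were listed at 0 on day 4. Mir127 had 13621700 FPKM on day 3, against 20991000 and 14224000 FPKM on days 1 and 2. A listed 0 next to such levels can be a failed estimate, and 8 of these 11 rows carry a call by the overlap rule that rests on it or includes it.

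Low rows carried part of the counts. Of the 321 higher rows, 55 were listed at 0 on days 1 and 2, and 50 of those had at most 10 recovered reads on days 3 and 4, the days with more reads. Of the 285 lower rows, 13 were listed at 0 on days 3 and 4. By mean level over days 1 to 4, 87 of 481 rows under 100 FPKM were higher (18.1%) and 53 lower (11.0%), while 80 of 345 rows at 10000 FPKM or over were higher (23.2%) and 89 lower (25.8%). The scatter between the days of a window, as a median SD over rows, was 0.97 in the lowest class and 0.50 in the highest. The snoRNA copies in the Snhg14 region on chromosome 7, where 20 of 77 rows were higher and 2 lower, belong to the low rows, as 76 of the 77 averaged under 100 FPKM. Of all snoRNA rows 11.8% were higher and 23.5% lower. For 2 of the 606 calls all 4 values were below 1 FPKM.

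Levels in the established lines, which the comparison does not use, differed by side. ESC exceeded iPSC in 164 of 315 higher rows (52.1%), in 257 of 809 overlapping rows (31.8%) and in 89 of 282 lower rows (31.6%), leaving out rows with an abundant value listed at 0 in either line. Of the 72 Sfmbt2 rows ESC exceeded iPSC in 69, so near copies make up a large share of the higher rows on this measure. The shares are a description of 2 libraries, with no test, and whether both carry the Mbd3f/- genotype is not settled.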

How the data were processed

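Small RNA libraries were made from total RNA with the TruSeq small RNA kit and gel size selection, per the labels' protocols. The deposited table gives FPKM per gene for 11 libraries. Of software, Cufflinks 2.2.1, Bowtie2 2 and CASAVA 1.8.2 appear in the submitters' processing notes, with the build mm10 and no settings; strand use in counting is not given in the sources used here. FPKM of genes shorter than the assumed fragment depends strongly on length, so a value is not a molecule count. The value of 1 read was recovered from the steps of low values (93.2% of 3131 values within 0.05 of a whole read) and used to express depth; a count test was not run, since these are not CPM steps.

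Rows with a mean of at least 10 FPKM over the 11 columns (1419 of 3859) were compared as log2(FPKM + 10), which understates changes of low rows. The pairs of days were compared by non-overlap, with no test, and with limma 3.58.1 in R 4.3.3 over days 1 to 8 (window fit, 4 residual degrees of freedom; step at day 3 beside a line, 5), two-sided, with Benjamini-Hochberg adjustment over 1419 rows and a threshold of 0.05. With 1 library per day, p-values of the window fit measure only the scatter between consecutive days. Those of the step fit measure only the scatter of the days about the fitted line and step. ± is the standard error of the fit. Genes were placed with GENCODE vM21 (3712 of 3859 rows found).

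The 4 libraries, the lists and the alternatives were chosen with earlier results of these data known. Named rows were the 12 highest and 12 lowest differences among non-overlapping rows of at least 1000 FPKM, the 10 most abundant rows, the 2 most abundant and 2 most different members of each list or seed family, rows listed at 0 beside abundant neighbours, and, chosen after their values were seen, the remaining rows that passed limma and members of families set beside them. Gm26117 was also chosen after its values were seen. A value counted as an abundant 0 by a rule set after the values were seen. The miR-29 list was corrected after the table was read, because its pattern also matched miR-290 to miR-299. Rows for paralogous hairpins with 1 mature sequence share reads, and genes overlapping another gene are uncertain.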

Additional observations from a re-analysis of the deposited data

How the results depend on the processing

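The counts of the limma fits depended on the settings. With a pseudocount of 100 the window fit called 2 rows higher and 1 lower and the step fit 1 higher. Without a filter on low values the window fit called 15 higher and the step fit 7 lower. A minimum of 100 FPKM gave 0 lower in the window fit and 6 higher in the step fit. A fit of days 1 to 4 alone called 0 in either direction. For the step fit, a pseudocount of 1 gave 5 lower, quantile normalization 1 lower, scaling by abundant miRNAs 1 higher, and miRNA rows alone, an alternative added after seeing the data, 5 lower. Leaving out 1 library gave 12 to 15 higher and 3 to 16 lower in the window fit, where the lone library is assumed to vary like the other windows, 1 to 15 higher and 0 to 15 lower in the step fit, and 414 to 571 higher and 412 to 533 lower by non-overlap. Requiring 2-fold between nearest values left 104 higher and 72 lower. The cause of the shifts in limma counts was not tested. Over all alternatives, the 9 rows called by the window fit kept their call in 84 of 111 fits and the 3 of the step fit in 32 of 47, with no change of direction. Mir654 kept its call in every fit but that of days 1 to 4 alone (limma, adjusted p = 0.0884). Leaving out 1 library moved list medians by over 1.5 times in 50 of 96 recomputations over 24 lists, and in 9 of them, from 7 lists, the median reached 0 or changed sign. For the differences of 109 named rows these counts were 168 and 26 of 436. The other settings did so for 12 and 1 of 72 list medians and 37 and 5 of 436 row differences. No paired analysis was possible because each stage has 1 library and the labels carry no replicate numbers. Rows of few reads cannot show changes below about 1 read, 29.4 to 46.0 FPKM at 80 nt on days 1 to 4.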
